A study of Kluyveromyces marxianus with 6 samples.

Results

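Cytosolic ribosomal protein mRNAs of the thermotolerant yeast *Kluyveromyces marxianus* were described in 3 phases of exponential growth. The members are the gene models whose closest homolog in the authors' protein search carries a ribosomal protein entry name (RL, RLA or RS and a digit). The rule took 28 of the 1998 gene models used here. These are only part of the authors' annotation, so further ribosomal protein genes may lie outside them. One of them, RL1D1, is the homolog of a ribosome biogenesis factor of *S. cerevisiae* (Utp30) and no part of the mature ribosome, so it was kept apart. The remaining 27 models match 25 distinct entries, since RL9B and RL17B were each matched by 2 models. They comprise 13 large subunit models, 12 small subunit models and 2 models of acidic stalk proteins.

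The ribosome joins a large and a small subunit, each built of rRNA and of proteins, most of which are used in equal numbers. Growing yeast cells spend a large share of their transcription on ribosome production, and in *S. cerevisiae* the TOR pathway, with Sch9, Sfp1 and Ifh1, sets the transcription of ribosomal protein genes by nutrients. Many ribosomal protein genes of *S. cerevisiae* also carry an intron close to the start codon, although few other genes of that yeast have one.

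Strain *marxianus* ATCC 36907 (KM7), with no other treatment named, was grown at 30 °C with shaking in yeast nitrogen base with dextrose and an amino acid mix lacking uracil. Cells were taken at an optical density of about 3 in early exponential (EE), 7 in mid exponential (ME) and 10 in late exponential (LE) phase. Each growth phase had 2 biological replicate libraries, from which rRNA had been removed and in which the strand was kept. Transcripts are given as transfrags, contiguous transcribed stretches of the genome, each with an RNA class (mRNA, long antisense RNA or lancRNA, short antisense RNA or sancRNA, and their intergenic counterparts).

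The transcriptional level of a transfrag is the authors' mean, over both libraries of a growth phase, of reads divided by a library size factor. The level is not scaled by length. Neither the spread between replicates nor a test can be had from means, so every change below is a description with no replicate check. Changes are given as log2 of (level + 1), folds are on the same scale, and ± is the standard error from counting reads alone. A change is counted when it reached 2-fold. The steps between low levels put the reads behind the table at about 4412219 in EE, 10970901 in ME and 13758059 in LE. By these estimates EE levels carry the largest counting error. The estimates lie well below the mapped reads that the paper reports for each growth phase, by the largest factor in EE. The cause of this gap was not tested. A count of 3 reads corresponds to EE, ME and LE levels of 4.00, 1.09 and 1.19. The cultures were measured in bulk, in which fewer cells with an RNA and less RNA per cell cannot be told apart.

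An mRNA transfrag on the same strand was found for 19 of the 27 models (70.4%), 10 of the large and 9 of the small subunit, and for 1546 of all 1998 models (77.4%). No mRNA transfrag on the same strand was assigned to the other 8. These are RS8B, RS19A and RS21 of the small subunit, RL7A, RL35B and 1 of the RL17B models of the large subunit, and both stalk models, RLA1 and RLA3. The authors had discarded the least abundant transfrags, so a model without an mRNA transfrag cannot be called untranscribed. Stalk proteins of this family recruit elongation factors to the ribosome. The models without an mRNA transfrag had a median length of 819 bp (315 to 1622 bp), close to the 873 bp (270 to 2181 bp) of those with one. No RNA gene of the annotation overlapped a member. The counts and medians that follow cover only the 19 models with an mRNA transfrag, each represented by the transfrag with the longest overlap.

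As deposited, most members were at least 2-fold higher in ME and in LE than in EE. Of the 19, 14 were at least 2-fold higher in ME than in EE and 1 was at least 2-fold lower, against 33.6% higher and 31% lower among all 5785 mRNA transfrags. In LE against EE, 12 were higher and 3 lower, against 34.2% and 37.2%. Between ME and LE none was at least 2-fold higher and 5 were lower, against 4.91% and 14.6%. With a limit of 1.5-fold, 2 were higher in LE than in ME, against 22.4% of all mRNAs. The median log2 change of the members was 2.39 in ME against EE, 1.53 in LE against EE and 0.15 in LE against ME, and the same medians over all mRNAs were -0.13, -0.28 and 0.06. Among the longest mRNA transfrags of all 1546 gene models the background was 38.6% higher and 26% lower in ME, 41.1% and 29.2% in LE against EE, and 5.24% and 11.7% in LE against ME. All 19 members had a mean level of at least 10. Among all mRNA transfrags at or above that mean level, 45.4% were higher and 21.9% lower in ME against EE. The shares were 47.5% and 25.1% in LE against EE, and 5.22% and 11.3% in LE against ME.

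**Figure D1:**
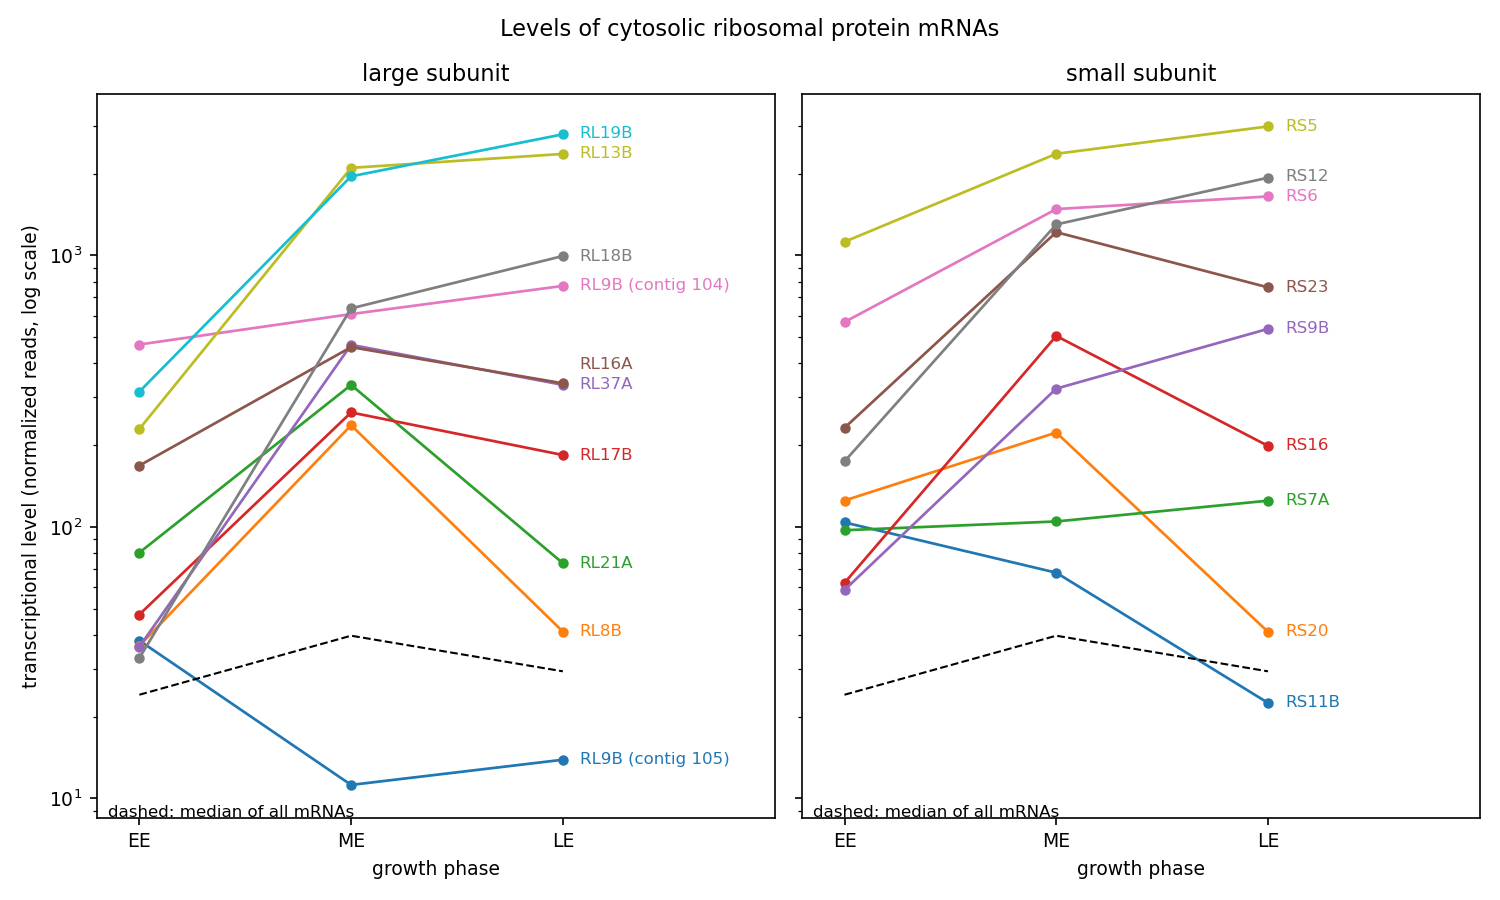
Transcriptional level (log axis, normalized reads, authors' mean of 2 libraries) of each of the 19 members in EE, ME and LE, with the large subunit on the left and the small subunit on the right; the dashed line is the median of all mRNA transfrags. Most lines climb from EE to ME, 5 fall steeply from ME to LE (RL8B, RL21A, RS16, RS11B and RS20), and only RL9B on contig 105 and RS11B have their highest level in EE.

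The largest rise of the large subunit belonged to RL18B (contig 103, 905040 to 906123, plus strand). Its EE, ME and LE levels were 32.9, 638 and 994. Against EE it was higher by 4.23 ± 0.25 (ME) and 4.87 ± 0.25 (LE) on the log2 scale, or 18.8-fold and 29.3-fold. The EE level rests on about 35.6 reads, and per kb RL18B went from 48.5 in EE, close to the lowest member, to 1466 in LE.

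RL13B (contig 103, 254718 to 255832, minus strand) and RL19B (contig 98, 200363 to 201230, plus strand) followed the same course. RL13B went from 229 in EE to 2098 in ME, then 2362 in LE, a log2 change of 3.19 ± 0.10 and 3.36 ± 0.10 against EE. RL19B, whose protein contacts the small subunit across the subunit interface, had EE, ME and LE levels of 315, 1953 and 2789, a log2 change of 2.63 ± 0.08 and 3.14 ± 0.08. As deposited, neither representative transfrag fell between ME and LE. Scaled by summed level, by that sum without the 100 highest transfrags and by mapped reads, RL13B changed by -0.28, -0.26 and -0.37 from ME to LE. RL19B changed by 0.06, 0.08 and -0.03.

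RL37A, a small zinc-binding protein, was at 36.2 (EE), 468 (ME) and 333 (LE). RL17B, which lines the tunnel through which the new chain leaves, was at 47.6, 264 and 184. RL16A was at 168, 459 and 338. All 3 thus peaked in ME, with log2 changes against EE of 3.66 ± 0.24, 2.45 ± 0.21 and 1.44 ± 0.12, and as deposited they stayed within 2-fold of that peak in LE. Scaled by mapped reads, RL37A and RL17B changed by -1.03 and -1.06 from ME to LE, past 2-fold. RL16A in LE lay at the limit itself, 2.00-fold above EE.

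RL21A and RL8B rose to ME and were back near their EE level in LE. RL21A (contig 103, 117955 to 118857, plus strand) had EE, ME and LE levels of 80.4, 333 and 73.5, which is 4.11-fold up and then 4.49-fold down. The representative transfrag of RL8B, a protein needed for rRNA processing in *S. cerevisiae*, had 36.5, 237 and 41.2, which is 6.34-fold up and 5.64-fold down. For RL8B this course depends on the transfrag. A further mRNA transfrag over the later portion of the same model had levels of 95.85, 378 and 794, so that it rose 2.10-fold from ME to LE, and the sum of both gave a log2 change of 0.44 from ME to LE instead of -2.50.

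The RL9B models differed from the rest and from each other. The protein sits near the site where translation factors bind. RL9B on contig 104 (197708 to 199888, plus strand) was already high in EE, at 469. As deposited it reached 607 in ME and 771 in LE, under 2-fold above EE. Scaled by mapped reads, its log2 changes against EE were 1.64 (ME) and 1.44 (LE), past 2-fold. RL9B on contig 105 (43602 to 44177, minus strand) was at 38.15 (EE), 11.2 (ME) and 13.9 (LE), and was the 1 member that was at least 2-fold lower in ME, with a log2 change of -1.68 ± 0.32 from about 41.3 reads in EE. The RL9B models were 2181 bp (contig 104) and 576 bp (contig 105) long, and how alike their sequences are was not tested. The authors' mapping placed reads that match several places at random, so reads of any near-identical stretches may be divided between models.

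In the small subunit, RS12 and RS9B were several-fold higher in ME than in EE and under 2-fold higher again in LE. RS12, a protein of the beak of the subunit, had EE, ME and LE levels of 174, 1299 and 1930.4, a log2 change of 2.89 ± 0.11 and 3.46 ± 0.11 against EE. RS9B (contig 103, 116206 to 117037, plus strand), which lies at the mRNA entry channel and affects decoding accuracy, had 58.6, 323 and 536, a log2 change of 2.44 ± 0.19 and 3.17 ± 0.19. RS9B and RL21A are neighbours on the same strand, 917 bp apart, and both were higher in ME than in EE, after which RL21A fell and RS9B did not.

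RS5, RS6 and RS23 had the most reads of the small subunit members in EE. RS5, a protein at the mRNA exit, was at 1121 (EE), 2364 (ME) and 2982 (LE), a 2.11-fold and 2.66-fold rise over EE. RS6, whose phosphorylation follows TOR activity in *S. cerevisiae*, was at 568, 1479 and 1647, a 2.60-fold and 2.90-fold rise. RS23, a protein of the decoding centre, was at 232, 1217 and 762, a 5.24-fold and 3.28-fold rise. RS5 and RS6 had the smallest increases among the small subunit members that passed 2-fold in ME, and per kb they had the highest EE levels of that subunit, 945 and 471. Scaled by the summed level without the 100 highest transfrags, RS5 had log2 changes of 0.89 (ME) and 0.79 (LE) against EE. By the same scaling RS6 had 0.92 in LE, so these calls fell under 2-fold.

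RS16, whose tail reaches the tRNA in the peptidyl site, was at 62.2 (EE), 505 (ME) and 199 (LE). Against EE its log2 change was 3.00 ± 0.19 (ME) and 1.66 ± 0.19 (LE), so it lost 2.53-fold between ME and LE and remained above EE. RS20, which is ubiquitylated on stalled ribosomes in *S. cerevisiae*, was at 125, 223 and 41.1. It was 5.32-fold lower in LE than in ME and 3.00-fold lower in LE than in EE. RS11B, an early rRNA-binding protein, was at 104 (EE), 67.8 (ME) and 22.5 (LE), a log2 change of -2.16 ± 0.22 in LE against EE. Its step from EE to ME, -0.61 as deposited, was 0.65 when scaled by mapped reads. The members at least 2-fold lower in LE than in EE were therefore RS20, RS11B and RL9B on contig 105. RS7A, also ubiquitylated in *S. cerevisiae*, was nearly level at 97.2, 105 and 125.

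**Figure D2:**
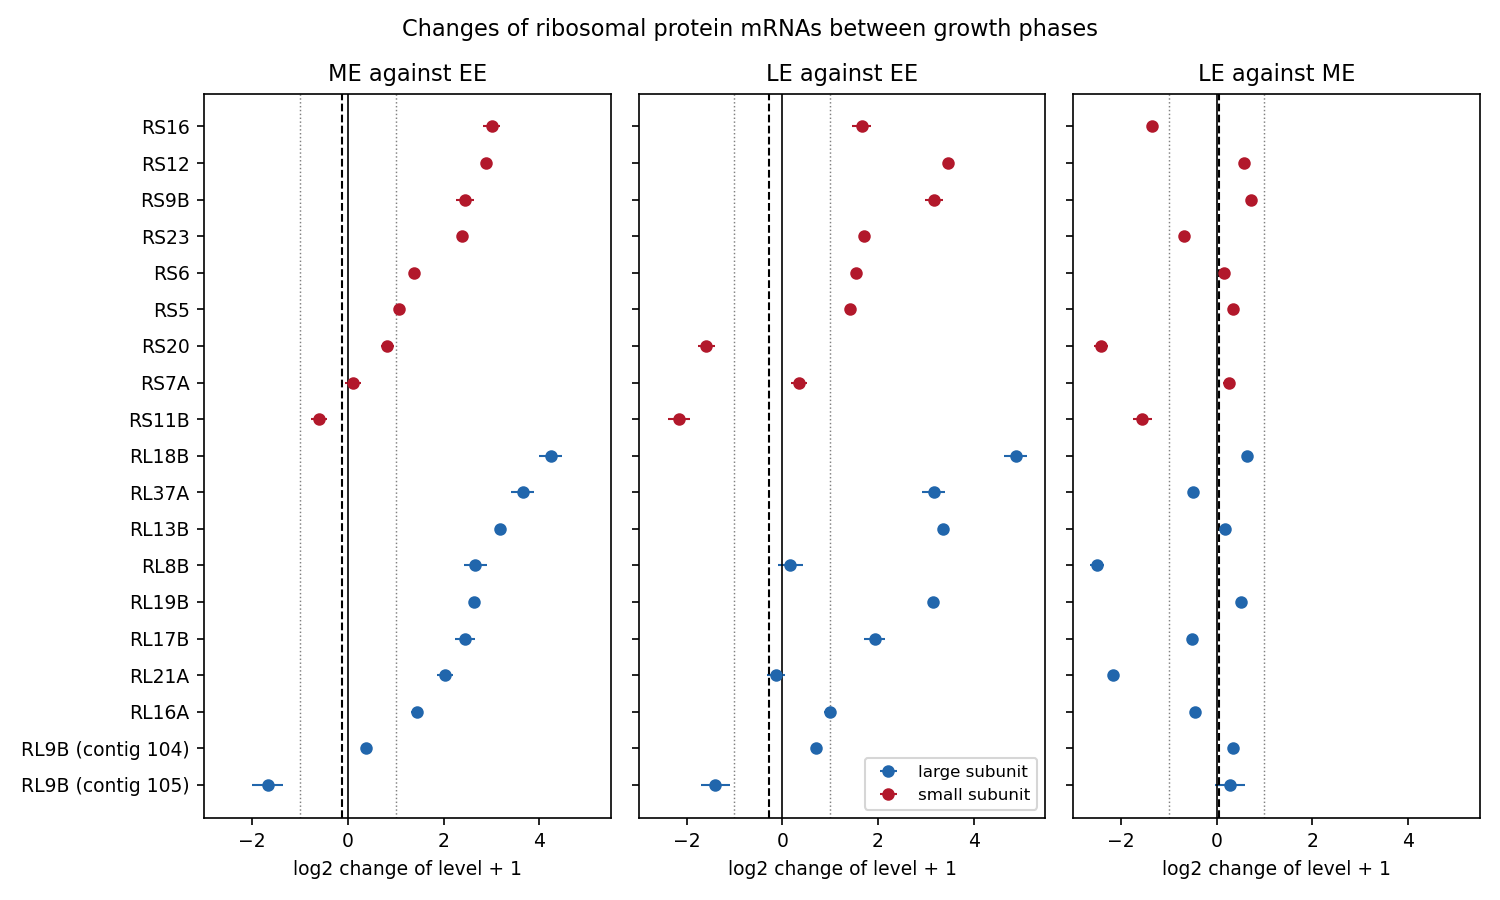
Log2 change of (level + 1) of each member in ME against EE, LE against EE and LE against ME, by subunit; bars are counting standard errors, dotted lines mark 2-fold and the dashed line is the median of all mRNA transfrags. The changes reach from -1.68 to 4.23 in ME against EE and from -2.16 to 4.87 in LE against EE, with 5 members past the lower dotted line in LE against ME.

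Among the members the highest level fell in EE for 2, in ME for 8 and in LE for 9. Over all mRNA transfrags it fell in EE for 46.9%, in ME for 18.5% and in LE for 34.6%. By subunit, the counts were close. In ME against EE, 8 of 10 large and 6 of 9 small subunit members were at least 2-fold higher, with median log2 changes of 2.54 and 1.38. In LE against EE, 6 of 10 and 6 of 9 were higher, with medians of 1.47 and 1.53. In LE against ME, 2 large and 3 small subunit members were lower, and no subunit had a member that was higher. These medians rest on 10 and 9 genes that range over more than 5 log2 units in LE against EE, from -1.39 to 4.87 for the large subunit and from -2.16 to 3.46 for the small subunit.

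Scaling between growth phases moved all changes together. Dividing by the summed level of all transfrags shifted the mRNAs by 0.26 on the log2 scale in ME against EE and by -0.19 in LE against EE. Leaving the 100 highest transfrags out of that sum moved them by -0.19 and -0.62, and dividing by mapped reads by 1.27 and 0.73. Under these 3 scalings 15, 13 and 17 members were at least 2-fold higher in ME, against 36.8%, 31% and 51.1% of all mRNAs, whose median change was 0.11, -0.30 and 1.07. In LE against EE 11, 9 and 14 members were higher, against 32%, 27.3% and 42%, with medians over all mRNAs of -0.44, -0.82 and 0.36. The median change of the members stayed above that of all mRNAs in both comparisons, at 2.65, 2.20 and 3.66 in ME and 1.35, 0.92 and 2.26 in LE. Scaled by mapped reads, 0 members were at least 2-fold lower in ME and 1 in LE than in EE, against 8.99% and 24.1% of all mRNAs, so the lower calls of RL9B on contig 105, in both comparisons, and of RS20 in LE were lost. The direction from ME to LE did depend on scaling, since 10 of 19 members were higher in LE as deposited and 4, 4 and 3 under these scalings, which moved all mRNAs by -0.45, -0.43 and -0.54. Under them 6, 6 and 8 members were at least 2-fold lower in LE than in ME, against 24.4%, 22.6% and 29.1% of all mRNAs.

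The share of the summed mRNA level on the members rose from EE to ME and was lower again in LE. The 19 mRNAs together held 0.106% (EE), 0.495% (ME) and 0.390% (LE) of the summed mRNA level. The denominator covers all 5785 mRNA transfrags, but members were sought in only part of the authors' gene models. These are therefore not the shares of all ribosomal protein mRNAs. The 95% Wilson intervals, which cover counting error only, were 0.103 to 0.109%, 0.490 to 0.499% and 0.386 to 0.393%. A few very abundant mRNAs weigh on this denominator, and with the 100 highest other transfrags left out the shares were 0.310%, 0.974% and 0.778%. The share was lowest in EE and highest in ME with either denominator, while the summed level of the members as deposited went from 3995 to 14651 and 16143.

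Per kb of transfrag, the members had median EE, ME and LE levels of 182, 676 and 556, against 47.3, 66.2 and 47.9 for all mRNA transfrags. All 19 lay above the median mRNA per kb in EE, as did 17 in ME and 18 in LE. The exceptions were RL9B on contig 105, at 14.1 per kb in ME and 17.4 in LE, and RS7A, at 57.7 per kb in ME. The longest mRNA transfrags of all gene models had higher medians, 61.1 (EE), 132 (ME) and 154 (LE) per kb. RL9B on contig 105 and RS7A lay below these medians in every growth phase. RL37A and RL18B also lay below in EE, and RL8B, RL21A, RS11B and RS20 in LE. RS5 led in EE with 945 per kb. RL13B and RL19B led in ME, with 3015 and 3014 per kb, and RL19B and RS12 in LE, with 4304 and 4055 per kb. Per-kb levels of the members spanned from 47.9 to 945 in EE and from 17.4 to 4304 in LE.

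The transfrags did not always cover the models. The models were drawn by the authors as gene units without exons and introns. The representative transfrag started at least 100 bp inside the model for 10 of 19 members (52.6%) and for 46.4% of all gene models with an mRNA transfrag. In these 10 it began 144 bp inside for RS6, 375 bp for RS23 and RS9B, 378 bp for RL19B, 463 bp for RS11B, 504 bp for RL21A, 535 bp for RS16, 560 bp for RL16A, 576 bp for RL13B and 649 bp for RL18B. Past the end of the model the transfrag ran on in 14 of 19 (73.7%), by a median of 157 bp over all 19, against 40.0% and 0 bp for all models. For RL19B a further mRNA transfrag covered the start of the model. Whether the uncovered stretches hold introns was not tested.

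**Figure D3:**
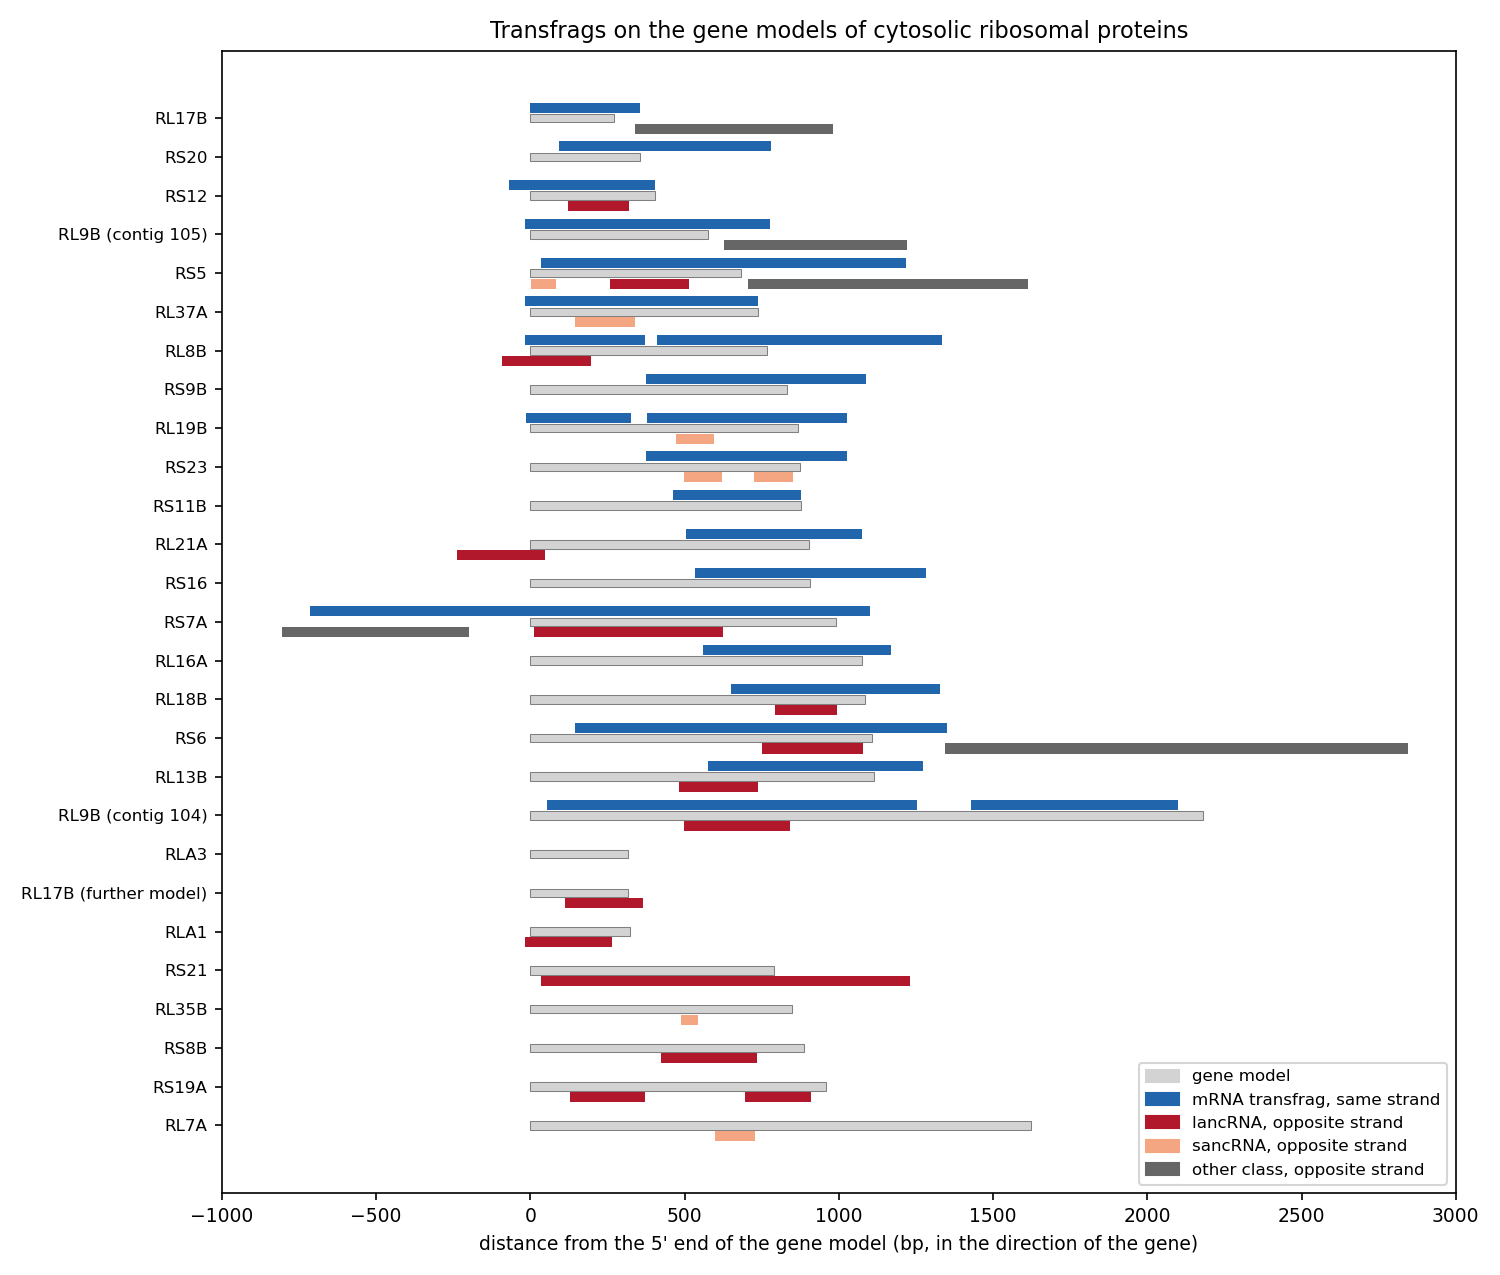
Gene models of the 27 members (grey), mRNA transfrags on the same strand (blue) and transfrags on the opposite strand (red, lancRNA; light red, sancRNA; dark grey, other classes), as distance in bp from the 5′ end of each model. In 10 members the blue bar that overlaps the model most begins 144 to 649 bp inside it, RL19B has a further blue bar over the start, many blue bars run past the end, and the 8 models at the bottom carry none.

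Where a model held more than 1 mRNA transfrag, their levels differed. Besides RL8B this applied to RL19B and RL9B on contig 104. The upstream transfrag of RL19B, across a gap of 52 bp, had EE, ME and LE levels of 53.4, 40.2 and 28.2 while the downstream transfrag rose, so that the ratio of downstream to upstream per kb went from 3.10 to 25.6 and 52.0. RL9B on contig 104 had a downstream transfrag at 67.3, 38.0 and 38.55, which per kb was 0.256, 0.112 and 0.0893 of the upstream one. In both genes the less abundant transfrag was lower in ME and LE than in EE, and the more abundant one was higher.

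Several members lay beside each other. Contig 103 held 13 of the 27, and 5 pairs, with 9 genes in all, were direct neighbours there. RLA1, RL13B and RS16 followed each other with 472 bp and 1183 bp between the models. RL18B and RS19A were 1016 bp apart, and the RL17B models were 342 bp apart. The RL17B models were 270 and 318 bp long on the same strand, and whether they are pieces of 1 gene was not tested. In the pairs of RLA1 with RL13B, RL18B with RS19A and the RL17B models, 1 model had an mRNA transfrag and the other had none. RL13B and RS16 both had one, and both were higher in ME than in EE.

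Opposite-strand transcription of the members was low, and its frequency was near that of the background. A transfrag on the other strand overlapped the mRNA transfrag by at least 1 bp in 13 of 19 members (68.4%), against 54.2% of all mRNA transfrags and 64.8% of the longest mRNA transfrags of all gene models. Over the gene models themselves, 19 of 27 (70.4%) had one, against 69.3% of all 1998 models. These were 22 transfrags, 15 lancRNAs and 7 sancRNAs, with median EE, ME and LE levels of 4.00, 2.40 and 3.06. Of the 22, 12 in EE, 3 in ME and 6 in LE were at or under 3 reads.

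The opposite strand was a small fraction of the sense strand once the mRNAs had risen. Over the 13 members the summed opposite level had a median of 17.0% (EE), 0.745% (ME) and 0.372% (LE) of the mRNA level, against 12.9%, 4.68% and 3.32% for all mRNA transfrags with an opposite transfrag. With an overlap of at least 50 bp, which left 12 members, the medians were 7.35%, 0.447% and 0.275%, against 10.8%, 4.17% and 2.95%. In EE the members thus lay above all mRNAs at 1 bp and below them at 50 bp, while in ME and LE they lay below at both. For the longest mRNA transfrags of all gene models, at 1 bp, the medians were 8.09%, 4.17% and 3.23%. For RS6 and RL17B most of the opposite level came from the mRNA of the next gene, which overlapped theirs by 7 bp and 14 bp.

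RS7A and RL9B on contig 105 stood apart from this. Over the RS7A mRNA, which began 714 bp before its model, lay a lancRNA at 28.5 (EE), 12.4 (ME) and 13.8 (LE) and an intergenic lincRNA at 70.9, 23.7 and 35.7. Together they reached 102% of the mRNA level in EE. A lincRNA of 592 bp, at 14.3, 29.5 and 29.6, overlapped only the last 149 bp of the RL9B mRNA on contig 105. The level of this whole lincRNA was 37.4% (EE), 263% (ME) and 213% (LE) of the mRNA level. The RL9B mRNA was thus lower in both later phases, and the lincRNA higher, by a log2 change of 1.00 in each. The RS5 mRNA was overlapped by 515 bp of a lincRNA at 181, 131 and 205, which was 16.2%, 5.52% and 6.89% of its level.

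The highest lancRNA over a member belonged to RS21, for which no mRNA transfrag was found. This lancRNA of 1196 bp (contig 103, 1015305 to 1016500, plus strand) covered 755 bp of the RS21 model. Its EE, ME and LE levels were 168, 37.4 and 45.3. It was thus at its highest in EE. Without an RS21 mRNA transfrag it could not be compared with its own sense strand.

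RLA1, a stalk protein model without an mRNA transfrag, had a lancRNA that moved the other way. Its EE, ME and LE levels were 2.75, 16.6 and 38.5, where the EE level is under 3 reads. Against the level of 3 reads per growth phase the ME level was at least 4.15-fold and the LE level at least 9.61-fold higher. The lancRNA over the RL17B model that lacked an mRNA was at 3.54, 6.33 and 15.8, at least 3.95-fold higher in LE than the EE floor. The lancRNAs of RS8B, at 8.08, 10.1 and 10.5, and of RL8B, at 8.95, 10.6 and 9.73, were nearly level.

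Some low opposite transfrags went down and others went up. A lancRNA over RS19A was at 11.4 (EE), 0.36 (ME) and 1.49 (LE), at least 10.4-fold lower in ME. The sancRNA over RL37A was at 7.38, 1.18 and 0.29, at least 6.20-fold lower in LE. The lancRNA over RS12 was at 0 (EE), 9.68 (ME) and 4.82 (LE), at least 2.42-fold and 1.20-fold above the EE floor, while RS12 mRNA rose. The lancRNA over RL13B was at 3.37, 10.3 and 6.60, and a further lancRNA over RS19A at 1.41, 3.73 and 4.32. Both were at or under 3 reads in EE.

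**Figure D4:**
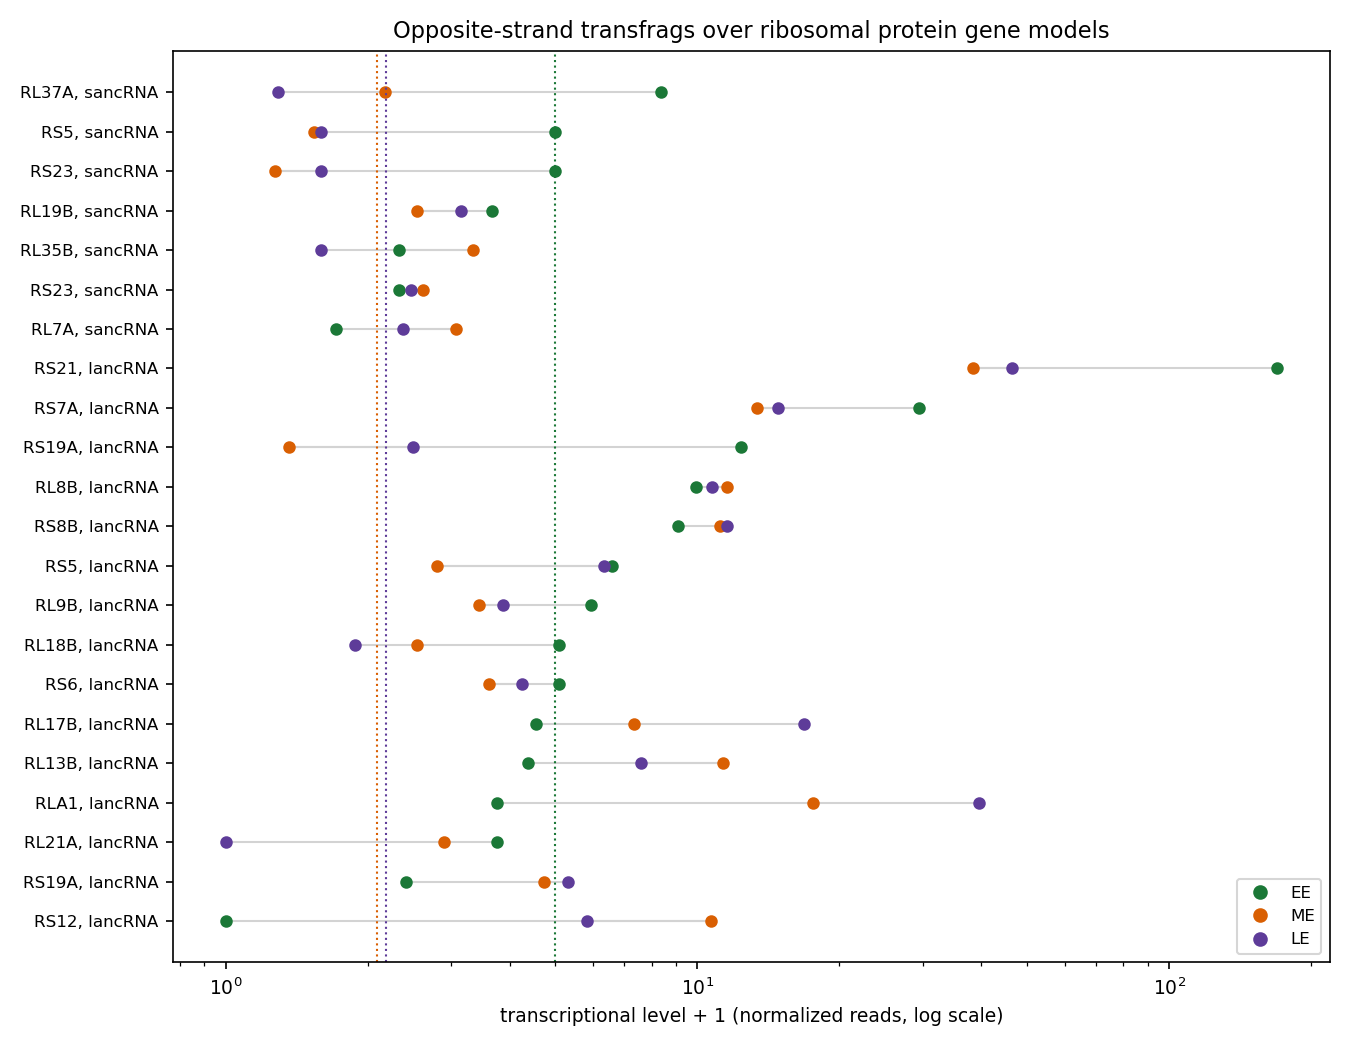
Level + 1 (log axis, normalized reads) of the 22 opposite-strand transfrags over ribosomal protein gene models in EE, ME and LE; dotted lines mark the level of 3 reads in each growth phase. The RS21 lancRNA is the highest in each growth phase, at levels of 168, 37.4 and 45.3, the RLA1 lancRNA climbs to 38.5 in LE, and most sancRNAs lie at or near the dotted lines.

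RL1D1 and RSSA, both kept apart from the members, were more than 2-fold higher in ME and LE than in EE. RL1D1 had EE, ME and LE levels of 8.79, 59.7 and 47.4, from about 9.51 reads in EE. RSSA, a small subunit protein whose entry name has no digit after the letters and which the rule therefore left out, had 97.6, 1019 and 780.4, log2 changes of 3.37 ± 0.15 (ME) and 2.99 ± 0.15 (LE) against EE. Adding either to the 19 gave 15 members of 20 that were higher in ME and 13 that were higher in LE than in EE.

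Other genes of the translation machinery were taken as lists. Their counts are to be read beside all mRNA transfrags, of which 33.6% were higher and 31% lower in ME than in EE. In LE against EE these shares were 34.2% and 37.2%. For the longest mRNA transfrags of all gene models they were 38.6% and 26% in ME, and 41.1% and 29.2% in LE. Mitochondrial ribosomal proteins, which translate the few proteins encoded in mitochondrial DNA, had an mRNA transfrag for 14 of 21 models. Of the 14, 8 (57.1%) were at least 2-fold higher and 4 (28.6%) lower than in EE, in ME and in LE alike. The median log2 changes were 1.63 and 1.56. The most abundant were RT05, at 155 (EE), 412 (ME) and 468 (LE), and RT31, at 55.9, 256 and 392, from a transfrag over only 19.0% of its model. Their median level per kb was 39.3, 181 and 154, below that of the cytosolic members in each phase.

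Translation factors had an mRNA transfrag for all 14 models, of which 4 (28.6%) were higher and 2 (14.3%) lower than EE in both later phases. EF1A, which brings aminoacyl-tRNA to the ribosome, changed little at 69681, 74485 and 112409 and made up most of the 2.05%, 2.86% and 3.12% of the summed mRNA level held by this list. EF1G2, a subunit of its exchange factor, rose from 466 to 2558 and 4427. The median log2 change of the list was 0.01 in ME and 0.72 in LE.

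Ribosome biogenesis factors divided almost evenly. Of 55 with an mRNA transfrag, 17 were higher and 15 lower in ME, and 17 higher and 17 lower in LE than in EE, near the shares among all mRNAs. FBRL (fibrillarin), which methylates rRNA, fell from 2371 in EE to 398 in ME, then stood at 740.1 in LE. NSA2, a factor of large subunit assembly, was at 460.0, 422 and 859. The median log2 change was -0.13 in ME and 0.47 in LE, where the ribosomal protein members had 2.39 and 1.53.

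Ribosome-associated factors had 6 of 13 (46.2%) higher and 4 (30.8%) lower in ME, and 6 (46.2%) higher and 5 (38.5%) lower in LE. TCTP, a translationally controlled protein found on ribosomes in yeast, had a larger change than any ribosomal protein member in ME, from 44.0 in EE to 1601, and was at 1504 in LE. TMA17 was at 99.2, 1018 and 1287. An mRNA transfrag was found for 5 genes of RNA polymerase I transcription, the subunits RPAC2, RPA1 and RPA34 and the initiation factors RRN9 and RRN11. Of these 5, 2 (40%) were higher in ME and 3 (60%) in LE than in EE, and none was lower. The third in LE was RRN11, with a log2 change of 1.31. RPAC2, a subunit shared with RNA polymerase III, was at 73.6, 310.2 and 477, and RPA1, the largest subunit, at 41.1, 195 and 234. The RPA1 transfrag covered only 15.6% of its model. No difference between these lists was tested.

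**Figure D5:**
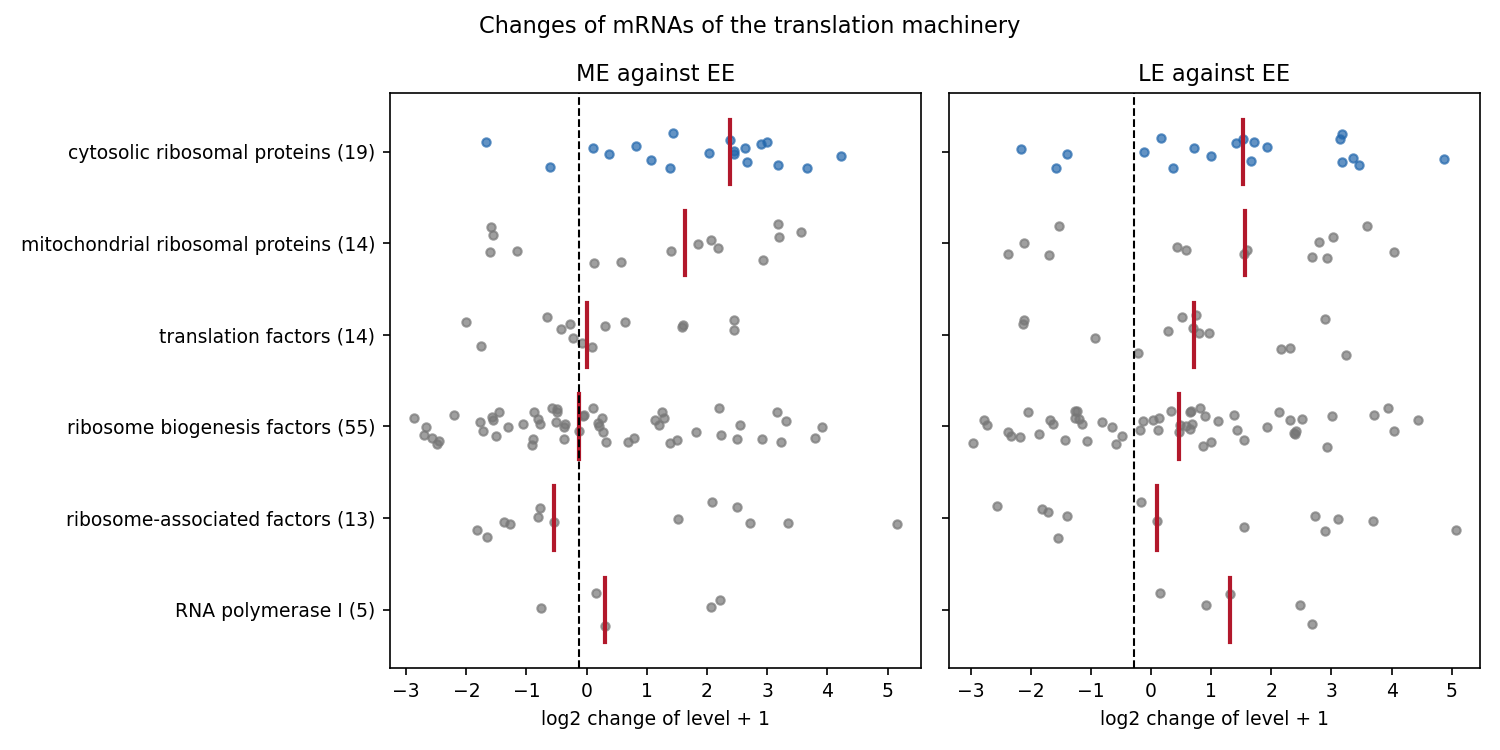
Log2 change of (level + 1) of every mRNA of each list in ME against EE and LE against EE; each point is a gene, the red bar is the median of the list, the number in brackets is the number of genes and the dashed line is the median of all mRNA transfrags. The ribosomal protein median stands at 2.39 in ME and 1.53 in LE, the mitochondrial list at 1.63 and 1.56, and the biogenesis factors at -0.13 and 0.47.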

How the data were processed

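Total RNA of 6 libraries, 2 per growth phase, was depleted of rRNA and sequenced by the dUTP method. The authors processed base calls with CASAVA, mapped trimmed reads to the genome contigs with CLC genomics workbench (matches to several places set at random), and joined reads of all growth phases into transfrags, cut at gene boundaries. The authors scaled libraries by DESeq size factors and discarded the least abundant transfrags. The deposited values are this normalized signal, 1 mean per growth phase for each of 14298 transfrags, with 2 decimals and no length scaling. The deposited annotation gave contig, strand, position and class.

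The design had allowed for counts per library, but only means were held, so no test was fitted. Gene models and homolog names came from the supplementary annotation, of which 1998 models were held. Homolog names rest on protein similarity alone. A gene was matched to mRNA transfrags overlapping its model by at least 1 bp on the same strand, and the longest overlap represented it. Changes are differences of log2(level + 1). Counting errors used reads estimated from the steps of low levels and assumed equal levels in both libraries. The step search and fold calls were tested on simulated data. All members are named or counted. Of each other list the 2 most abundant mRNAs are named. Members and lists were chosen with earlier results of these data known. Alternatives covered pseudocount, scaling, fold limit, a filter on low levels, summed transfrags and overlap. Python 3.11.15, NumPy 2.4.6, pandas 2.3.3, SciPy 1.17.1 and Matplotlib 3.10.9 were used.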

Additional observations from a re-analysis of the deposited data

How the results depend on the processing

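No paired analysis was possible because the files hold 1 mean per growth phase, so fits without 1 replicate or with the replicate block were not run either. A pseudocount of 0.5 or 5, leaving out mean levels under 10, summing all mRNA transfrags of a gene, and adding RL1D1 or RSSA (these additions were chosen after seeing the data) kept the counts of higher members within 1.5 times of those reported, as did the 3 scalings. With a 1.5-fold limit 2 members were higher in LE than in ME, instead of 0. Summed over its transfrags, RL8B changed by 0.44 instead of -2.50 in LE against ME. Summed transfrags gave shares of the mRNA level of 0.112% (EE), 0.510% (ME) and 0.410% (LE), and without the 100 highest other transfrags 0.310%, 0.974% and 0.778%. Without length scaling, median levels were 104, 468 and 338. Large minus small subunit medians with summed transfrags were 0.75 instead of -0.07 in LE against EE and 0.073 instead of -0.29 in LE against ME. Among called mRNAs of the whole table, the higher share as deposited was 52.0% in ME, 47.9% in LE against EE and 25.2% in LE against ME. Scaled by mapped reads it was 85.1%, 63.5% and 5.66%, without the 100 highest 47.3%, 36.8% and 5.29%, and without mean levels under 10 67.5%, 65.4% and 31.7%. The cause of these shifts was not tested. Depth in EE limits opposite-strand levels, of which 12 of 22 were at or under 3 reads.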
